A study of Mus musculus with 6 samples.

Results

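The genes described here are 37 type I interferon-stimulated genes, followed in the dorsal hippocampus of WT mice after knockdown of the lncRNA Snhg11. They were taken by symbol from a list of genes that type I interferon is known to induce. This list was chosen with earlier results of these data known. The members are 37 of the 55401 genes counted in each sample and 37 of the 19969 genes that passed a filter on low counts and were tested. All 37 passed that filter. RNA-seq was performed on 6 samples, 3 per group, after injection of either Control-ASO or Snhg11-ASO. Antisense oligonucleotides (ASO) are short synthetic strands that bind an RNA by base pairing and lead to its cleavage by RNase H. Snhg11-ASO targets Snhg11, and Control-ASO holds its bases in scrambled order. Both strands carried 2′-O-methoxyethyl sugars and a phosphorothioate backbone, so all 6 samples came from mice that received a modified oligonucleotide and none from mice without an injection. All mice were wild type littermates of the Ts65Dn line, aged 4 months. Each hemisphere received 50 µg of ASO into the dorsal dentate gyrus, and the dorsal part of the hippocampus was taken 3 days later, so the RNA holds neurons and glia of the injected and the surrounding tissue together. The labels give no sex for these samples. The study names male mice for its RT-qPCR on the dorsal hippocampus of injected animals and states that hippocampal RNA was also sequenced.

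Type I interferons are secreted proteins that bind the receptor formed by Ifnar1 and Ifnar2. The kinases Jak1 and Tyk2 then phosphorylate STAT proteins, among them Stat2, which joins Irf9 in the factor ISGF3 and switches on interferon-stimulated genes through an element in their promoters. Many of these genes encode sensors of foreign RNA or proteins that block viral replication, and in the brain microglia, astrocytes, endothelial cells and neurons can all express them.

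RefSeq promoter windows of GRCm38.p6, from 250 bases before to 50 bases after each annotated start, were at hand for 27 of the 37 genes. The windows were searched on both strands for GAAANNGAAA (TTTCNNTTTC on the opposite strand), a sequence held within the interferon-stimulated response element. Overlapping matches were counted apart. A match was present in 13 of the 27 genes (48.1%) and in 3.99% of all 27025 genes with a window. Isg15 held 3 matches. Bst2, Ifit1, Ifit3, Ifit3b and Oas1a held 2 each, and Ddx58, Eif2ak2, Ifih1, Oas3, Rsad2, Stat2 and Trim30a held 1. The 200 bases before the start are printed in the direction of transcription for 5 genes, with the matches in capitals. Isg15 was chosen for its 3 matches and Ifit1 as the IFIT gene with the largest fold change. Ifit3 and Ifit3b were chosen because their promoters are near copies. Rsad2 was chosen because its fold change over all 6 samples was the largest of the 37.
Isg15, chr4:156200819-156201018, minus strand: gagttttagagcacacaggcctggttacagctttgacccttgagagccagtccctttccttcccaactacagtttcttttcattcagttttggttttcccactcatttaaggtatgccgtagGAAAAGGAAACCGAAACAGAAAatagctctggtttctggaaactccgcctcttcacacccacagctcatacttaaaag
Ifit1, chr19:34640689-34640888, plus strand: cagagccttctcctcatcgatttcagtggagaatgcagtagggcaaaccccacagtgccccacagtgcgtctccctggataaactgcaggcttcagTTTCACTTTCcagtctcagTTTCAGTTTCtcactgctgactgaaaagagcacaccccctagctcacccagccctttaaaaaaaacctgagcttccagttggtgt
Ifit3, chr19:34583329-34583528, plus strand: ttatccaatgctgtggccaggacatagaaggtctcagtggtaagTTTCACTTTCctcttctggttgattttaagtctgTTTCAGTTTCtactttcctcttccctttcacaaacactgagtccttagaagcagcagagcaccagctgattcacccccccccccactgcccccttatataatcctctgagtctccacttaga
Ifit3b, chr19:34607757-34607956, plus strand: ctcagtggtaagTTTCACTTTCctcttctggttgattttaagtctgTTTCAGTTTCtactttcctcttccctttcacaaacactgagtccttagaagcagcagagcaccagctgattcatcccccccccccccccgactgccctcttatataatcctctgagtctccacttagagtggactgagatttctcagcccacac
Rsad2, chr12:26456453-26456652, minus strand: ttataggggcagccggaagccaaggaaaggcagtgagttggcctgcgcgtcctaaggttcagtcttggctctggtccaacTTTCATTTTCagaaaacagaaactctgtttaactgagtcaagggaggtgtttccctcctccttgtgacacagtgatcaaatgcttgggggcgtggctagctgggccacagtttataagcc
The 3 matches of Isg15 overlap and begin at positions -78, -72 and -66, where -1 is the base before the start. Those of Ifit1 begin at -104 and -85. Those of Ifit3 begin at -156 and -122 and those of Ifit3b at -188 and -154, and a local alignment of both windows held 259 identical bases in 274 columns (94.5%). The match of Rsad2 begins at -120. These matches are letters in a sequence and were not tested for binding.

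Read pairs counted on genes ranged from 28951250 to 34293344 in the Control-ASO samples and from 38556524 to 43997537 in the Snhg11-ASO samples. The 37 genes together took 9407, 22873 and 27427 read pairs in Control-ASO replicates 1, 2 and 3 and 36606, 54498 and 44912 in Snhg11-ASO replicates 1, 2 and 3. Levels are given as CPM, the counts relative to the TMM-scaled library size, always in the order of replicates 1, 2 and 3. Over all genes tested, Snhg11-ASO replicate 1 stood apart, with Spearman correlations of 0.955 to 0.959 with the other samples against 0.979 to 0.991 among those. The targeted Snhg11 was at 551, 436 and 209 CPM in Control-ASO against 139, 65.4 and 69.4 CPM in Snhg11-ASO. The Snhg11-ASO mean was 22.9% of the Control-ASO mean, with no overlap between the groups. In log2 units the difference was -2.13 ± 0.43 (standard error; adjusted p = 0.395 edgeR quasi-likelihood test, Benjamini-Hochberg adjusted). DESeq2 called Snhg11 lower, with an adjusted p of 0.0000625. Markers of hippocampal neurons such as Slc17a7 (614 to 748 CPM) and Prox1 (82.1 to 167 CPM), the dentate granule cell factor, were present in every sample. All p-values measure the spread between these samples.

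All 37 genes had a higher mean in Snhg11-ASO than in Control-ASO, against 51.7% of all genes tested. Since the list was chosen with earlier results of these data known, the shares of all genes beside it are descriptive. The means differed by 1.12 to 3.11 times, with a median of 2.07. The median log2 fold change of the 37 genes was 1.04, against 0.00967 for all genes tested. In 23 genes every Snhg11-ASO sample lay above every Control-ASO sample, a pattern that 7.73% of all genes tested showed in this direction and 7.7% in the other. At an unadjusted p under 0.05, 18 of the 37 genes were higher and 0 lower in Snhg11-ASO, while 3.68% of all genes were higher and 4.43% lower. None of the 37 passed an adjusted p of 0.05 in edgeR's quasi-likelihood test, in which 0% of all genes passed. Their adjusted p ranged from 0.377 to 0.884. DESeq2 called 5 of the 37 at an adjusted p under 0.05, all higher, namely Ifi35 (0.00122), Samd9l (0.00391), Rsad2 (0.00795), Trim25 (0.0194) and Ifih1 (0.029), against 0.523% of all genes in this direction. In bulk tissue, more cells of a type and more RNA per cell cannot be told apart. Replicate 1 of Control-ASO was the lowest of the Control-ASO samples in 37 of 37 genes, against 35% of all genes tested, and without it the median log2 fold change was 0.646.

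**Figure D1:**
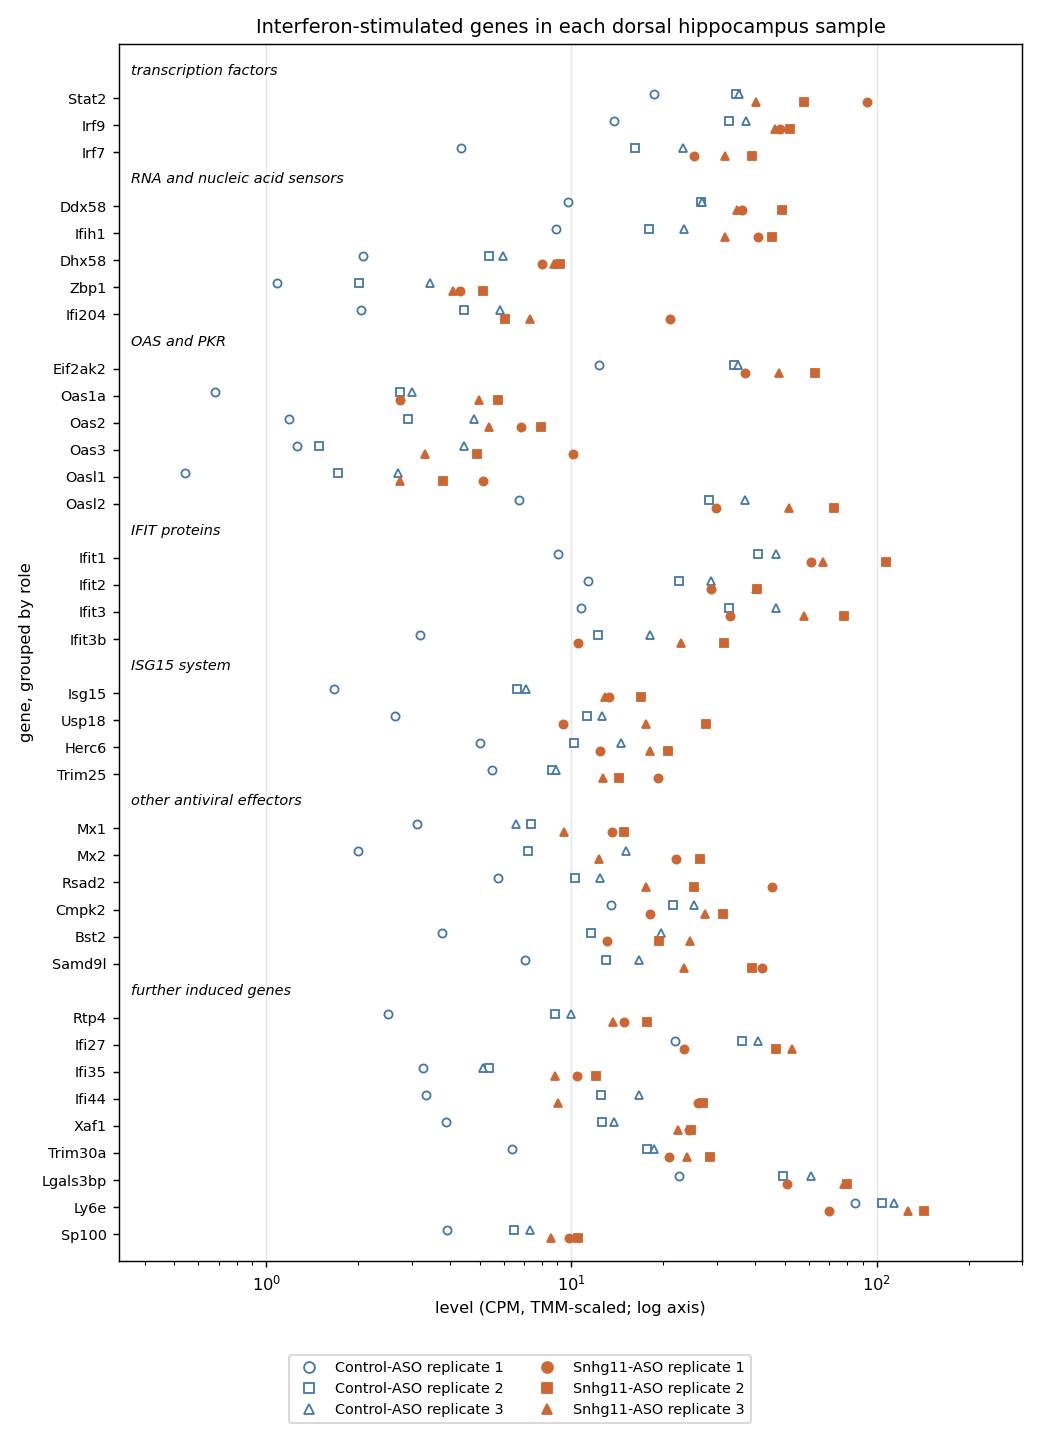
Level of each of the 37 interferon-stimulated genes in each of the 6 samples, in TMM-scaled CPM on a log axis, with open blue symbols for Control-ASO and filled orange symbols for Snhg11-ASO. The open circle of Control-ASO replicate 1 lies farthest to the left in 36 of the 37 genes, and in 23 genes all filled symbols lie to the right of all open symbols.

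**Figure D2:**
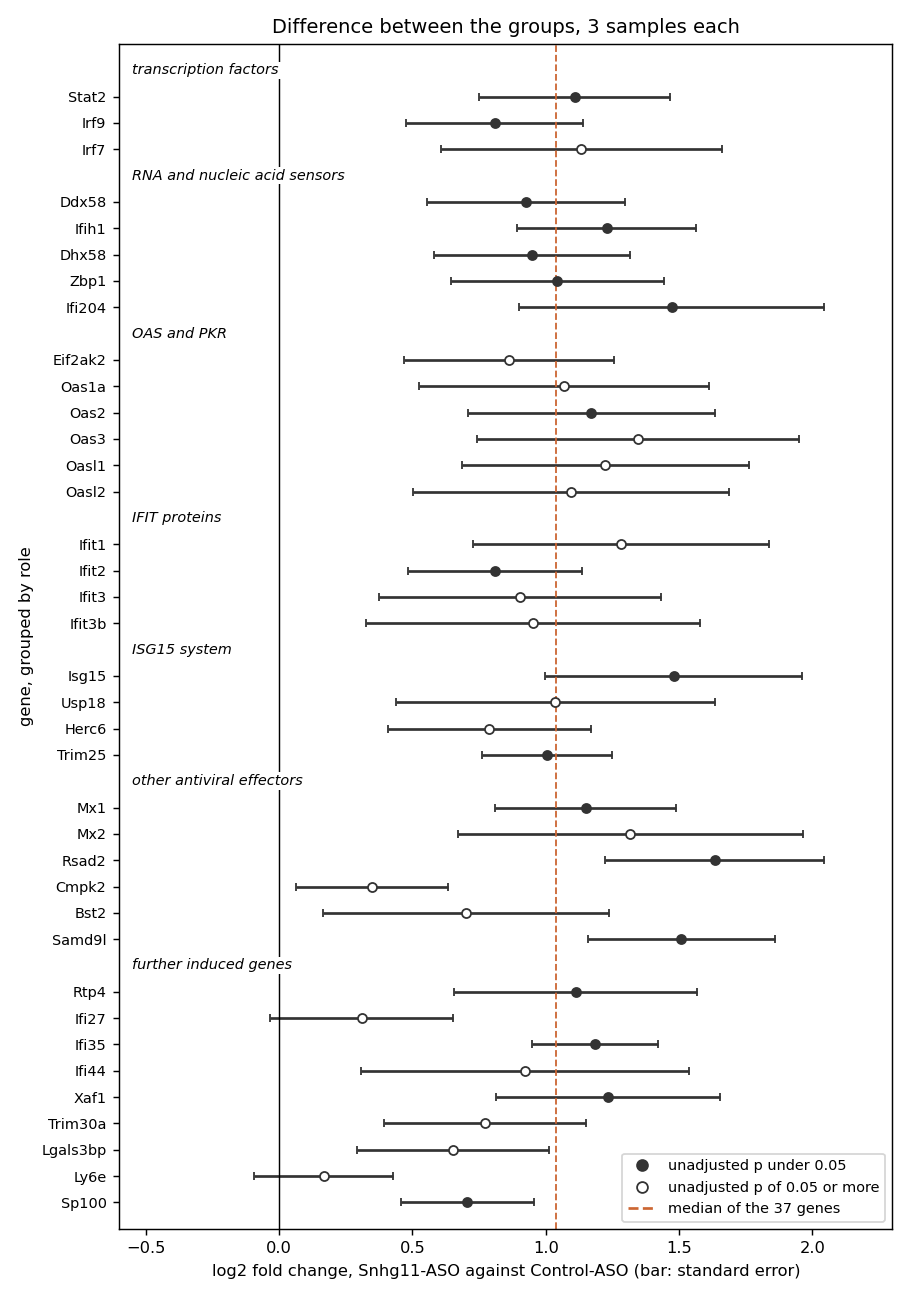
Log2 fold change of Snhg11-ASO against Control-ASO for each gene, grouped by role, with its standard error as a bar (3 samples per group). All 37 points lie above 0, the dashed line marks their median of 1.04, and the 18 filled points have an unadjusted p under 0.05.

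The transcription factors came first in the pathway. Stat2 (ENSMUSG00000040033) on chromosome 10, a STAT subunit of ISGF3, was at 18.6, 34.5 and 35.3 CPM in Control-ASO against 92.8, 57.7 and 40.2 CPM in Snhg11-ASO. Irf9 (ENSMUSG00000002325) on chromosome 14, the DNA-binding subunit of ISGF3, was at 13.8, 32.8 and 37.2 CPM in Control-ASO against 48.3, 52.2 and 46.4 CPM in Snhg11-ASO. Irf7 (ENSMUSG00000025498) on chromosome 7, the factor that amplifies the production of type I interferon, was at 4.35, 16.2 and 23.2 CPM in Control-ASO against 25.3, 38.95 and 31.8 CPM in Snhg11-ASO. In all 3 genes the groups did not overlap, against 7.73% of all genes tested in this direction. Stat2 had its highest value in Snhg11-ASO replicate 1, whereas the Snhg11-ASO samples of Irf9 lay close together (coefficient of variation 6.02%, against 44.5% in Control-ASO). The log2 fold changes were 1.11 for Stat2, 0.81 for Irf9 and 1.13 for Irf7. Their unadjusted p was 0.0173, 0.0449 and 0.0687 and their adjusted p 0.543 to 0.644 in edgeR (Benjamini-Hochberg adjusted). Without Snhg11-ASO replicate 1 these fold changes were 0.73, 0.82 and 1.27.

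The sensors of foreign RNA and DNA were 5 genes, and all of them had an unadjusted p under 0.05 and groups that did not overlap. Of all genes tested, 3.68% were higher at that p and 7.73% were higher without overlap. Ddx58 (ENSMUSG00000040296), which encodes RIG-I, the sensor of RNA with a 5′ triphosphate, was at 9.76, 26.6 and 26.7 CPM in Control-ASO against 36.3, 48.9 and 34.7 CPM in Snhg11-ASO. Ifih1 (ENSMUSG00000026896), which encodes MDA5, the sensor of long double-stranded RNA, was at 8.91, 17.9 and 23.4 CPM in Control-ASO against 40.8, 45.3 and 31.9 CPM in Snhg11-ASO. Dhx58 (ENSMUSG00000017830) encodes LGP2, a regulator of both sensors, and was at 2.07, 5.38 and 5.97 CPM in Control-ASO against 7.999, 9.19 and 8.77 CPM in Snhg11-ASO. Control-ASO replicates 2 and 3 lay near each other in Ddx58 and Dhx58 and replicate 1 lay well below both. Zbp1 (ENSMUSG00000027514), a sensor of Z-form nucleic acids, was at 1.09, 2.02 and 3.44 CPM in Control-ASO against 4.33, 5.12 and 4.1 CPM in Snhg11-ASO. The DNA-binding Ifi200 family member Ifi204 (ENSMUSG00000073489) was at 2.04, 4.46 and 5.85 CPM in Control-ASO against 20.98, 6.05 and 7.33 CPM in Snhg11-ASO. Ifi204 was led by Snhg11-ASO replicate 1, the other 2 Snhg11-ASO samples lay just above Control-ASO replicate 3, and 20% of the 50-base stretches of its transcripts also occur in transcripts of other genes, most of them of Ifi211. The log2 fold changes were 0.93, 1.23, 0.95, 1.04 and 1.47 for Ddx58, Ifih1, Dhx58, Zbp1 and Ifi204. Ifih1 had the smallest unadjusted p of these sensors (0.00804, adjusted p = 0.492, edgeR, Benjamini-Hochberg adjusted). Without Snhg11-ASO replicate 1 the log2 fold change of Ifi204 was 0.70.

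Eif2ak2 and the OAS genes encode enzymes that double-stranded RNA activates. Eif2ak2 (ENSMUSG00000024079) encodes PKR, a kinase that stops translation, and was at 12.3, 33.95 and 35.03 CPM in Control-ASO against 37.1, 62.6 and 48.01 CPM in Snhg11-ASO. The OAS enzymes make 2′-5′-linked oligoadenylates that activate RNase L. Among them, Oas1a (ENSMUSG00000052776) was at 0.6799, 2.74 and 2.998 CPM in Control-ASO against 2.75, 5.77 and 4.97 CPM in Snhg11-ASO, and Snhg11-ASO replicate 1 lay between Control-ASO replicates 2 and 3. Oas2 (ENSMUSG00000032690) was at 1.19, 2.91 and 4.81 CPM in Control-ASO against 6.85, 7.92 and 5.36 CPM in Snhg11-ASO, with no overlap. Oas2 was the only one of the 6 genes of this group at an unadjusted p under 0.05 (0.0393). Oas3 (ENSMUSG00000032661) was at 1.26, 1.49 and 4.45 CPM in Control-ASO against 10.2, 4.91 and 3.32 CPM in Snhg11-ASO, so Snhg11-ASO replicate 3 lay below Control-ASO replicate 3. Its log2 fold change was 1.35, with 2.14 without Control-ASO replicate 3 and 0.77 without Snhg11-ASO replicate 1. The OAS-like proteins carry ubiquitin-like domains beside their OAS domain. Oasl1 (ENSMUSG00000041827), known as a repressor of Irf7 translation, was at 0.544, 1.72 and 2.701 CPM in Control-ASO against 5.11, 3.81 and 2.75 CPM in Snhg11-ASO. Its groups nearly met, since Snhg11-ASO replicate 3 lay just above Control-ASO replicate 3. Oasl2 (ENSMUSG00000029561) was at 6.73, 28.2 and 37.1 CPM in Control-ASO against 29.7, 72.5 and 51.7 CPM in Snhg11-ASO, with Snhg11-ASO replicate 1 below Control-ASO replicate 3. All 5 Oas and Oasl genes lie on chromosome 5. The log2 fold changes in this group ran from 0.86 for Eif2ak2 to 1.35 for Oas3, with a median of 1.13, and the adjusted p from 0.591 to 0.682 (edgeR, Benjamini-Hochberg adjusted). Of the 50-base stretches of Oas1a, 57.6% also occur in other genes, most of them in Oas1g, and read pairs that map to several places were not counted.

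The IFIT genes encode proteins that bind foreign RNA or each other, and all 4 lie on chromosome 19. Ifit1 (ENSMUSG00000034459), which recognises the 5′ end of viral RNA, was at 9.01, 40.7 and 46.7 CPM in Control-ASO against 60.7, 107 and 66.7 CPM in Snhg11-ASO. Its Snhg11-ASO samples all lay above its Control-ASO samples, and Snhg11-ASO replicate 2 was the highest. Ifit2 (ENSMUSG00000045932) was at 11.3, 22.6 and 28.6 CPM in Control-ASO against 28.7, 40.6 and 40.1 CPM in Snhg11-ASO, with Snhg11-ASO replicate 1 just above Control-ASO replicate 3. Both Ifit3 (ENSMUSG00000074896) and its near copy Ifit3b overlapped between the groups. Ifit3 was at 10.7, 32.8 and 46.8 CPM in Control-ASO against 33.1, 78.1 and 57.9 CPM in Snhg11-ASO. Ifit3b (ENSMUSG00000062488) was at 3.195, 12.3 and 18.1 CPM in Control-ASO against 10.5, 31.7 and 22.8 CPM in Snhg11-ASO. In both, Snhg11-ASO replicate 1 lay within the Control-ASO range. Of their 50-base stretches, 51.2% of Ifit3 and 45% of Ifit3b occur in other genes, 869 of them in each other. The log2 fold changes were 1.28 for Ifit1, 0.81 for Ifit2, 0.90 for Ifit3 and 0.95 for Ifit3b, with unadjusted p of 0.0541, 0.0427, 0.131 and 0.172 in edgeR's quasi-likelihood test.

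Isg15 is a ubiquitin-like modifier that is attached to other proteins, and 3 further genes of the list act with it. Isg15 (ENSMUSG00000035692), on chromosome 4, was at 1.67, 6.63 and 7.095 CPM in Control-ASO against 13.3, 16.9 and 12.9 CPM in Snhg11-ASO. Its Snhg11-ASO samples lay close together and well above its Control-ASO samples, and the log2 fold change was 1.48 (unadjusted p = 0.0182, adjusted p = 0.543, edgeR, Benjamini-Hochberg adjusted). Trim25 (ENSMUSG00000000275), a ubiquitin ligase that also acts on RIG-I and ISG15 targets, was at 5.47, 8.62 and 8.88 CPM in Control-ASO against 19.2, 14.4 and 12.6 CPM in Snhg11-ASO. Its groups did not overlap, and its log2 fold change was 1.01 with a standard error of 0.24 (unadjusted p = 0.00451, edgeR's quasi-likelihood test). Usp18 (ENSMUSG00000030107), the protease that removes ISG15 and restrains the interferon receptor, was at 2.65, 11.2 and 12.6 CPM in Control-ASO against 9.36, 27.5 and 17.5 CPM in Snhg11-ASO. Herc6 (ENSMUSG00000029798), the main ISG15 ligase of the mouse, was at 5.03, 10.2 and 14.5 CPM in Control-ASO against 12.4, 20.8 and 18.1 CPM in Snhg11-ASO. In Usp18 and Herc6, Snhg11-ASO replicate 1 lay within the Control-ASO range, and the unadjusted p was 0.127 and 0.0773 with log2 fold changes of 1.04 and 0.79 (edgeR's quasi-likelihood test). Herc6 shares 13.7% of its exonic bases with Gm45193 on the same strand, where read pairs are assigned to neither gene.

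The other antiviral effectors held both the largest fold changes of the 37 and 1 of the smallest. Rsad2 (ENSMUSG00000020641) encodes viperin, an enzyme that makes a chain-terminating nucleotide, and was at 5.75, 10.3 and 12.4 CPM in Control-ASO against 45.4, 25.3 and 17.6 CPM in Snhg11-ASO. Samd9l (ENSMUSG00000047735), an antiviral factor, was at 7.04, 12.96 and 16.7 CPM in Control-ASO against 42.02, 39.1 and 23.3 CPM in Snhg11-ASO. Both had groups that did not overlap, with Snhg11-ASO replicate 1 the highest and replicate 3 the lowest of the Snhg11-ASO samples. Their log2 fold changes were 1.63 and 1.51 (unadjusted p = 0.00538 and 0.00359, adjusted p = 0.479 and 0.445, edgeR, Benjamini-Hochberg adjusted). Without Snhg11-ASO replicate 1 they were 1.17 and 1.35, below the 1.53 of Isg15 in that fit. Cmpk2 (ENSMUSG00000020638), a mitochondrial nucleotide kinase, starts 12752 bases from Rsad2 on the opposite strand of chromosome 12. It was at 13.5, 21.6 and 25.3 CPM in Control-ASO against 18.02, 31.5 and 27.3 CPM in Snhg11-ASO, with a log2 fold change of 0.35 and overlapping groups (unadjusted p = 0.259, edgeR's quasi-likelihood test). The level of Rsad2 divided by that of Cmpk2 in the same library was 0.426, 0.476 and 0.491 in Control-ASO against 2.52, 0.803 and 0.645 in Snhg11-ASO. The Rsad2 ratio did not overlap between the groups, with a mean difference of 1.24 in log2 units. For the neighbours Mx1 and Mx2 and for Ifit1 and Ifit2 the same ratios did overlap, with differences of -0.458 and 0.661. These 3 pairs were chosen with their values known, so no test is given.

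Mx1 (ENSMUSG00000000386) and Mx2 (ENSMUSG00000023341) are neighbouring dynamin-like GTPases on chromosome 16, and both are defective in many laboratory strains. Mx1 was at 3.13, 7.37 and 6.59 CPM in Control-ASO against 13.6, 14.9 and 9.48 CPM in Snhg11-ASO, without overlap. Mx2, which the annotation lists as a polymorphic pseudogene, was at 2.01, 7.19 and 15.1 CPM in Control-ASO against 22, 26.4 and 12.3 CPM in Snhg11-ASO, and its Control-ASO samples had the widest spread of the 37 genes (coefficient of variation 81.4%). The log2 fold changes were 1.15 for Mx1 (unadjusted p = 0.0116) and 1.32 for Mx2 (unadjusted p = 0.0809, edgeR's quasi-likelihood test). Without Control-ASO replicate 3 the log2 fold change of Mx2 was 2.12, and without Control-ASO replicate 1 it was 0.85. Bst2 (ENSMUSG00000046718), the tetherin that holds budding virus at the cell surface, was at 3.77, 11.6 and 19.6 CPM in Control-ASO against 13.1, 19.4 and 24.4 CPM in Snhg11-ASO. Bst2 overlapped between the groups, with a log2 fold change of 0.70 (unadjusted p = 0.232, edgeR's quasi-likelihood test). This fold change became 1.30 without Control-ASO replicate 3 and 0.28 without Control-ASO replicate 1.

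The last 9 genes have other or less defined roles. Ifi35 (ENSMUSG00000010358), a leucine zipper protein on chromosome 11, was at 3.26, 5.35 and 5.14 CPM in Control-ASO against 10.4, 12.04 and 8.84 CPM in Snhg11-ASO. It had the smallest p of the 37 (log2 fold change 1.19, standard error 0.24, unadjusted p = 0.00156, adjusted p = 0.377, edgeR, Benjamini-Hochberg adjusted), and its Control-ASO samples were among the closest together (coefficient of variation 25%). On the opposite strand, Gm11626 covers 16.8% of the exonic bases of Ifi35. Xaf1 (ENSMUSG00000040483), which binds the apoptosis inhibitor XIAP, was at 3.88, 12.6 and 13.8 CPM in Control-ASO against 24.3, 24.6 and 22.4 CPM in Snhg11-ASO. Its Snhg11-ASO samples had the narrowest spread of all 37 genes (coefficient of variation 5.02%). Rtp4 (ENSMUSG00000033355), a Golgi chaperone of receptors, was at 2.52, 8.799 and 10 CPM in Control-ASO against 14.8, 17.7 and 13.7 CPM in Snhg11-ASO. Sp100 (ENSMUSG00000026222), a component of nuclear bodies, was at 3.91, 6.48 and 7.33 CPM in Control-ASO against 9.84, 10.5 and 8.59 CPM in Snhg11-ASO. Trim30a (ENSMUSG00000030921) was at 6.39, 17.7 and 18.7 CPM in Control-ASO against 20.8, 28.5 and 23.9 CPM in Snhg11-ASO. In Xaf1, Rtp4, Sp100 and Trim30a the groups did not overlap, and the log2 fold changes were 1.23, 1.11, 0.71 and 0.77. Their unadjusted p was 0.0217, 0.0444, 0.0256 and 0.0805 in edgeR's quasi-likelihood test.

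In the remaining 4 genes the groups overlapped. Ifi44 (ENSMUSG00000028037) was at 3.33, 12.5 and 16.7 CPM in Control-ASO against 25.9, 26.9 and 9.001 CPM in Snhg11-ASO, and Snhg11-ASO replicate 3 lay below Control-ASO replicates 2 and 3. The secreted galectin-binding glycoprotein Lgals3bp (ENSMUSG00000033880) was at 22.5, 49.3 and 61.03 CPM in Control-ASO against 50.9, 79.7 and 78.1 CPM in Snhg11-ASO. Ifi27 (ENSMUSG00000064215), a mitochondrial membrane protein, was at 21.8, 36.2 and 40.8 CPM in Control-ASO against 23.3, 46.6 and 52.6 CPM in Snhg11-ASO. In Ifi27 and Lgals3bp, Snhg11-ASO replicate 1 was the lowest of its group and lay inside the Control-ASO range. The surface protein Ly6e (ENSMUSG00000022587) was at 84.7, 104 and 114 CPM in Control-ASO against 69.8, 143 and 127 CPM in Snhg11-ASO, so Snhg11-ASO replicate 1 was the lowest of all 6 samples. Ly6e had the smallest log2 fold change of the 37 (0.17, unadjusted p = 0.542, edgeR's quasi-likelihood test), and without Snhg11-ASO replicate 2 it was -0.04. The other log2 fold changes were 0.92 for Ifi44, 0.65 for Lgals3bp and 0.31 for Ifi27.

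Compared between genes per kilobase of exon, the Control-ASO level was highest for Ly6e (26.7 CPM per kilobase), Ifi27 (22.5), Ifit3 (17.2), Lgals3bp (15.5), Bst2 (12.9) and Ifit1 (12.1). The difference between Ly6e and Ifi27 was smaller than the SD of Ifi27 over the Control-ASO samples. In Snhg11-ASO the order began with Ifit3 (32.3 CPM per kilobase), Ly6e (29.9), Ifit1 (29.5) and Ifi27 (27.9). Their coefficients of variation over the Snhg11-ASO samples were 40%, 34%, 32.3% and 37.9%. That spread was wider than the differences between these genes, so their order is not resolved. Oas3 had the lowest level per kilobase in both groups, at 0.339 and 0.867. Ly6e and Ifi27, at the top of this order in Control-ASO, were also the genes with the smallest log2 fold changes of the 37.

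The spread inside Control-ASO was wide for these genes. The coefficient of variation over the 3 Control-ASO samples had a median of 47.9% over the 37 genes, against 12.3% over all genes tested and 9.82% over the 13121 genes tested whose Control-ASO mean lay in the same range of 1.66 to 100.9 CPM. In Snhg11-ASO the medians were 26% for the 37 genes and 18.9% for all genes. The spread was wider in Snhg11-ASO than in Control-ASO for 5 of the 37 genes (13.5%), namely Stat2, Ifi204, Rsad2, Ifi27 and Ly6e, against 66.5% of all genes. The highest Control-ASO sample had a median of 2.89 times the lowest, against 1.27 times over all genes tested. In 32 of the 37 genes this ratio within Control-ASO was larger than the ratio of the group means. A ratio of single extreme samples and a ratio of means are unlike measures, and the same count over all genes was not taken. Control-ASO replicate 3 was above replicate 2 in 35 genes, with a median ratio of 1.17. The median ratio of Control-ASO replicate 2 to replicate 1 was 2.45. The 37 levels summed to 319.77, 679.9 and 814.19 CPM in Control-ASO, and in Snhg11-ASO to 960.07, 1304.03 and 1028.63 CPM, so no sum overlapped. Snhg11-ASO replicate 2 was the highest of the 6 samples in 28 genes, against 10.4% of all genes tested. Snhg11-ASO replicate 1 was the highest in 7 (Stat2, Ifi204, Oas3, Oasl1, Trim25, Rsad2 and Samd9l) and replicate 3 in 2 (Bst2 and Ifi27), against 33.3% and 14% of all genes.

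**Figure D3:**
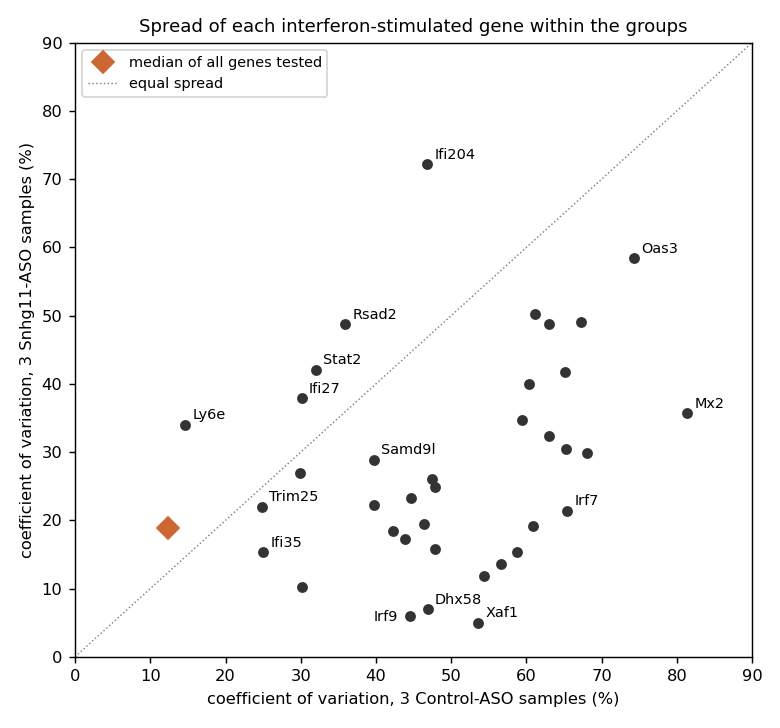
Coefficient of variation of each of the 37 genes over the 3 Snhg11-ASO samples against that over the 3 Control-ASO samples, in percent, with the orange diamond at the medians of all genes tested and the dotted line at equal spread. Of the 37 points, 32 lie below the line, and all lie to the right of the diamond.

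The same replicate numbers occur in both groups. Over all genes tested, deviations from the group means correlated between same-numbered samples at 0.297, 0.179 and 0.103 for replicates 1, 2 and 3. Among the 37 genes, replicate 3 was the highest Control-ASO sample in 35 but the highest Snhg11-ASO sample in 2. Between replicates 1, 36 of the 37 genes were higher in Snhg11-ASO, with a median ratio of 3.98. Between replicates 2, all 37 were higher, with a median ratio of 2.04. Between replicates 3, 34 were higher, with a median ratio of 1.29. Of all genes tested, 49.3%, 50.7% and 51.2% were higher in these comparisons. The size of the difference was thus unequal across the numbers, and 33 genes were higher in all 3, the exceptions being Ly6e between replicates 1 and Oas3, Mx2 and Ifi44 between replicates 3. The labels do not say what a number marks, so a pairing by number is an assumption taken from these same data. With the replicate number as a block in edgeR, 30 of the 37 genes had an unadjusted p under 0.05, all higher, against 3.99% of all genes in this direction. The median log2 fold change was then 1.17, and 0 passed an adjusted p of 0.05. In the deposited data, replicate 1 of both groups carries one form of sample code and the other 4 samples another, and what the forms stand for is not given in the sources used here. Within the first form, 1 sample against 1, the median log2 ratio was 1.99. Within the other 4 samples, all 37 genes were higher with a median log2 ratio of 0.682, and 33 of the 37 did not overlap, against 20.4% of all genes.

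The remaining parts of the pathway were read from a list of 97 further genes, also chosen with earlier results known, of which 75 were tested. Of these, 34 were higher and 1 lower in Snhg11-ASO at an unadjusted p under 0.05, against 3.68% and 4.43% of all genes tested. None of the 75, 0 genes, passed an adjusted p of 0.05. The interferons themselves were barely counted. Of 21 ligand genes, 15 had 0 counts in all samples, where 0 counts allow for up to 3 counts or 0.0687 to 0.102 CPM per library. All 21 together had 2, 3 and 3 counts in Control-ASO against 10, 0 and 2 counts in Snhg11-ASO. Ifnb1, which encodes interferon beta, had 1 count, in Control-ASO replicate 3. The ligand Ifnab reached 0.184 CPM in Snhg11-ASO replicate 1. The Ifna genes are near copies of one another, and pairs that map to several of them were not counted.

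Of 6 receptor genes tested, 0 had an unadjusted p under 0.05. The receptor gene Ifnar1 was at 44.3, 42.7 and 40.8 CPM in Control-ASO against 44.1, 44.1 and 42.9 CPM in Snhg11-ASO (log2 fold change 0.04). Ifnar2 was at 8.36, 9.75 and 9.02 CPM against 11, 10.2 and 10.9 CPM (log2 fold change 0.24, unadjusted p = 0.11, edgeR's quasi-likelihood test). Among 10 transducers, Jak2, Stat3, Irf1 and Irf5 were higher at an unadjusted p under 0.05, with log2 fold changes of 0.32, 1.21, 1.10 and 0.46, and 0 were lower. Of all genes tested, 3.68% were higher and 4.43% lower at that p. Irf1, an early induced factor, was at 6.93, 8.86 and 10.4 CPM against 33, 12.4 and 10.7 CPM and was led by Snhg11-ASO replicate 1.

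Among 11 feedback regulators tested, Socs3, Ptpn6, Isg20, Samhd1, Nlrc5 and Nmi were higher and Adar was lower at an unadjusted p under 0.05, against 3.68% and 4.43% of all genes tested. The log2 fold changes were 0.63 for the phosphatase gene Ptpn6, 1.01 for the exonuclease gene Isg20, which also counts among the other interferon-stimulated genes, 0.59 for Samhd1, which depletes nucleotides, 1.11 for Nlrc5, an activator of MHC class I genes, and 0.81 for Nmi. Socs3, an inhibitor of cytokine receptor signalling, was at 5, 2.91 and 3.38 CPM in Control-ASO against 80.7, 6.53 and 6.55 CPM in Snhg11-ASO, so its log2 fold change of 3.06 was led by Snhg11-ASO replicate 1. Adar, which edits adenosines in double-stranded RNA, was at 135, 119 and 124 CPM against 96.8, 93.1 and 81.5 CPM, the opposite direction to the 37 genes (log2 fold change -0.48, unadjusted p = 0.0021, adjusted p = 0.415, edgeR, Benjamini-Hochberg adjusted). Trex1, a DNase, was listed at 0 in all samples. Its whole span lies inside Atrip on the same strand of chromosome 9, where read pairs are assigned to neither gene. Of 49 other interferon-stimulated genes, 45 were higher, with a median log2 fold change of 0.819. An unadjusted p under 0.05 was found for 25 of them, all higher, against 3.68% of all genes tested. Ifi203, of the same Ifi200 family as Ifi204, was at 4.32, 6.78 and 5.02 CPM against 25.5, 16.4 and 10.2 CPM (log2 fold change 1.69, unadjusted p = 0.00196, edgeR's quasi-likelihood test). The poly(ADP-ribose) polymerase family gene Parp14 was at 10.9, 17.9 and 22.4 CPM against 44.4, 36.3 and 29.6 CPM. Dtx3l, a ubiquitin ligase gene, was at 9.08, 17.4 and 19.3 CPM against 32.2, 34.2 and 28.6 CPM. Both thus had groups that did not overlap, with log2 fold changes of 1.10 and 1.05. The Ifi200 family member Ifi207 was at 1.46, 2.79 and 3.89 CPM against 18, 5.24 and 5.57 CPM (log2 fold change 1.82). Ifi209 was at 1.46, 1.46 and 1.9 CPM against 14, 1.56 and 3.11 CPM, with overlapping groups (log2 fold change 1.95). Both were led by Snhg11-ASO replicate 1, which was also the highest sample of Ifi211 (1.83) and of Ifi213, whose groups overlapped (0.77, unadjusted p = 0.44, edgeR's quasi-likelihood test). Among the Schlafen genes, Slfn2 was at 3.2, 4.67 and 5.05 CPM against 29.3, 7.61 and 6.21 CPM, so its log2 fold change of 1.74 was led by the same sample. Slfn5 and Slfn9 had 0.87 and 0.86, and Slfn8 overlapped between the groups (0.48, unadjusted p = 0.326, edgeR's quasi-likelihood test). The tripartite motif genes Trim21, Trim56 and Trim26 had 0.83, 0.93 and 0.37, and Parp10 and Parp12 had 1.03 and 0.72. The rest of the 25 were Oas1g (1.55), Gm4951 (1.42), Phf11d (1.30), Tor3a (1.08), Uba7, the activating enzyme of ISG15 (1.04), Helz2 (0.82), Znfx1 (0.66), Ifi30 (0.65), Pml (0.51) and Tor1aip1 (0.43).

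Markers of cell types that could carry the 37 genes were measured beside them. Of 14 microglial markers, 7 were higher and 7 lower with 0 at an unadjusted p under 0.05, and they summed to 367.6, 741.32 and 586.32 CPM in Control-ASO against 275.25, 693.05 and 819.92 CPM in Snhg11-ASO. Replicate 1 had the lowest microglial sum in each group. Of 10 markers of reactive astrocytes, all 10 were higher and 7 had an unadjusted p under 0.05, with sums of 617.31, 2407.95 and 1715.03 CPM against 2159.9, 2959.47 and 3191.21 CPM. Of all genes tested, 3.68% were higher at that p. Gfap was the largest part of each sum and overlapped between the groups. Snhg11-ASO replicate 1 was the highest sample for Lcn2, Cd44, Timp1, Serpina3n, Osmr, Steap4 and Cp (Cd44 at 200, 34 and 43.4 CPM in Snhg11-ASO). Only Gfap, Vim and S1pr3 were highest in another sample. Of 10 markers of blood-derived and border myeloid cells, all 10 were higher and 2 had an unadjusted p under 0.05, Ly6c2 and Plac8, with log2 fold changes of 2.14 and 1.27. They summed to 9.3 to 14.07 CPM in Control-ASO, and in Snhg11-ASO to 70.31, 11.75 and 12.76 CPM, and S100a8, a granulocyte and monocyte gene, was at 22.3 CPM in Snhg11-ASO replicate 1 and at most 1.05 CPM elsewhere. Without Snhg11-ASO replicate 1 the median log2 fold change of the 37 genes was 1.03, and single genes moved either way. Rsad2 went from 1.63 to 1.17 and Oas1a from 1.07 to 1.32. The median of the other pathway genes was then 0.514, against 0.746 with all samples. The part of blood-derived and border myeloid cells in the differences was not tested. The 11 lymphocyte markers did not pass the filter and summed to at most 1.48 CPM, with Cd3e, the T cell receptor subunit, at 0 to 5 counts. The 10 endothelial markers summed to 191.21 to 229.18 CPM in Control-ASO, and in Snhg11-ASO to 193.17 to 231.24 CPM, with 0 at an unadjusted p under 0.05. The 10 choroid plexus markers summed to 1941.35, 38.64 and 1252.88 CPM in Control-ASO, and in Snhg11-ASO to 1325.43, 127.54 and 71.05 CPM, and 0 had an unadjusted p under 0.05. Of 8 astrocyte markers, 3 were higher and 5 lower, with 0 at an unadjusted p under 0.05 and 1, Slc1a2, lower without overlap, and they summed to 4407.55 to 5121.68 CPM in Control-ASO, and in Snhg11-ASO to 3273.63 to 4740.94 CPM. Of 10 hippocampal neuron markers, 4 were higher and 6 lower, and their sums were 3287.77 to 3444.56 CPM against 2951.85 to 3332.06 CPM. At an unadjusted p under 0.05, Wfs1 was higher (log2 fold change 0.40) and Syt1, a synaptic vesicle gene, lower (-0.32). Syt1 and Gad1 were lower without overlap, against 7.7% of all genes tested in this direction. All 8 oligodendrocyte markers had a higher mean in Snhg11-ASO, with 0 at an unadjusted p under 0.05 and none without overlap, and their sums were 1635.01, 3014.52 and 2016.28 CPM against 1691.46, 3719.55 and 2948.25 CPM.

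**Figure D4:**
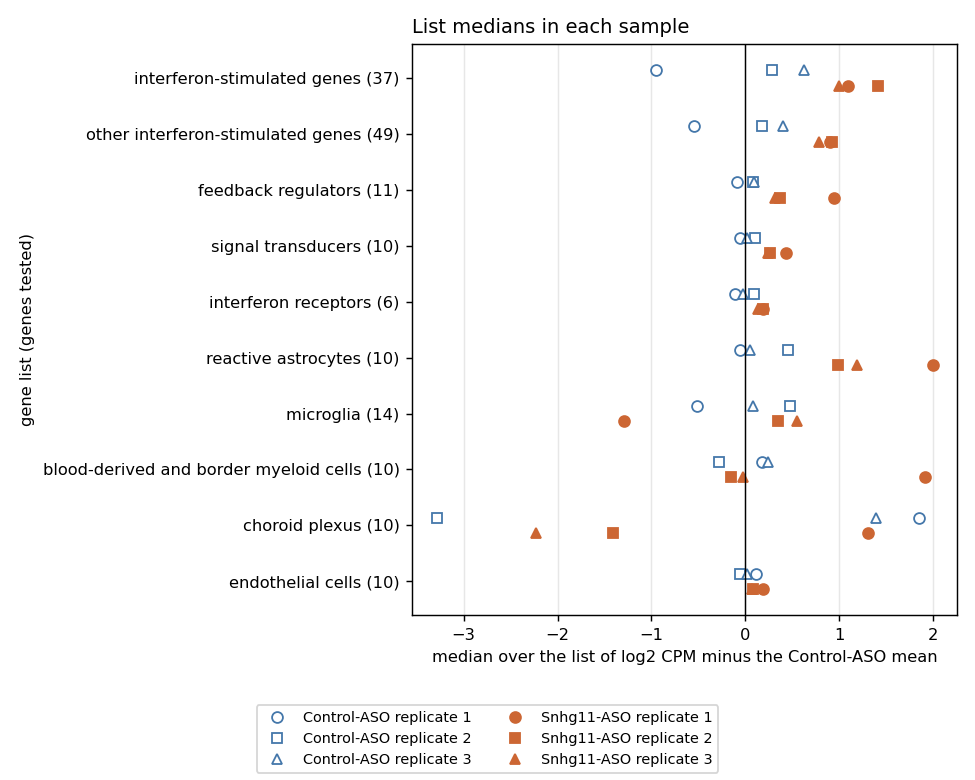
Median over each gene list, in each sample, of the log2 CPM minus its mean over the Control-ASO samples, with the number of genes tested in parentheses. The 37 interferon-stimulated genes ran from -0.951 to 0.627 in Control-ASO and from 0.997 to 1.416 in Snhg11-ASO, and Snhg11-ASO replicate 1 was at -1.289 for microglia and 1.91 for blood-derived and border myeloid cells.

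Where a promoter window was at hand, the 13 genes with a match to GAAANNGAAA had a median log2 fold change of 1.07 and the 14 without one of 0.964. Genes without a match in this window included Samd9l, Ifi35 and Trim25. No promoter window was at hand for Dhx58, Ifi204, Ifi27, Ly6e, Mx1, Mx2, Oas2, Rtp4, Usp18 and Zbp1.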

How the data were processed

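RNA-seq libraries were made from ribo-depleted, strand-specific total RNA. The authors aligned the read pairs (50 bases each) to mm10 with STAR 2.5.2a, and the deposited files hold raw counts per gene from STAR, unstranded and by strand, although the methods name Rsubread for counting. Counts on the strand that the protocol predicts were used (96.2% to 96.8% of stranded counts). STAR counts neither multi-mapping pairs nor pairs on exons shared by several genes. The 4 summary lines of each file, 43.5% to 51.4% of pairs, were left out. The study removed 1 Snhg11-ASO sample, not named in the sources used here, and all 6 were kept here. The members and gene lists were chosen with earlier results of these data known.

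Gene symbols came from GENCODE M21 (55141 of 55401 identifiers matched). Genes were filtered with filterByExpr (minimum count 10), scaled with TMM and tested with edgeR's quasi-likelihood test over all genes (R 4.3.3, edgeR 4.0.16), with Benjamini-Hochberg adjustment at 0.05. The common dispersion corresponded to a biological coefficient of variation of 0.266, and the prior had 2.99 degrees of freedom. The named genes were all 37 members, genes of the fixed pathway list at an unadjusted p under 0.05, the ligands and receptors as counts, and Snhg11. Same-numbered samples correlated at 0.297, 0.179 and 0.103 in their deviations from the group means. Correlations between samples of unlike number are not given, so these values do not establish a pairing. The main fit had no block, and pairing by number was used only in the replicate block alternative. The labels do not say what a number marks. Alternatives were DESeq2 1.42.0 (also without each Snhg11-ASO sample), limma-voom with sample weights (limma 3.58.1), other scaling factors, other filters, counts of both strands, a robust fit, the replicate block and leaving out each sample. The methods were tested on simulated counts. The values of 1 transducer gene of the pathway list are not reported here.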

Additional observations from a re-analysis of the deposited data

How the results depend on the processing

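All 37 genes kept a positive log2 fold change in 18 of 20 alternatives. Ly6e turned to -0.036 in edgeR and -0.0343 in DESeq2 without Snhg11-ASO replicate 2, and over the omissions of single samples it reached 0.421. DESeq2 called 258 genes, 5 of them among the 37, and gave Snhg11 -2.12 (adjusted p = 0.0000625). Without Snhg11-ASO replicate 1, 2 or 3, DESeq2 called 347, 275 and 223 genes, 4, 3 and 6 of the 37, and gave Snhg11 -2.57, -1.94 and -1.96 (DESeq2 adjusted p = 0.0000166, 0.00174 and 0.00205). Without replicate 2 it put 11 of the 37 at an unadjusted p under 0.05. The cause of the difference between the tools was not tested. In edgeR, leaving out single samples gave 9 to 26 of the 37 at an unadjusted p under 0.05 (the lowest count without Snhg11-ASO replicate 2), against 1.77% to 4.81% of all genes higher at that p. It left 22 to 33 of the 37 without overlap, against 11.4% to 14.7% of all genes in this direction, 0 to 2 genes called in all, a median of 0.646 to 1.37 (0.646 without Control-ASO replicate 1), and Snhg11 at -2.56 to -1.83. For the other pathway genes it gave 18 to 33 at an unadjusted p under 0.05, with 18 without Control-ASO replicate 1 and 22 without replicate 2, and a median of 0.512 to 0.918. Limma-voom with sample weights called 7 genes and put 32 of the 37 at an unadjusted p under 0.05 (5.48% of all genes higher), and the replicate block put 30 there (3.99%). The block changed no adjusted call among the 37. Both alternatives on the form of the sample code were chosen after seeing the data. With the form as a term, 1 gene was called and 32 of the 37 were at an unadjusted p under 0.05 (5.27% of all genes higher). With the 4 samples of the commoner form alone, the latter count was 30 (4.12%) and the median of the other pathway genes 0.356. Scaling factors, filters, strand choice and the robust fit changed no call among the 37 at an adjusted p under 0.05. At an unadjusted p under 0.05 the main fit had 18 of the 37 (3.68% of all genes higher). Without a filter on low counts edgeR had 26 (3.42%), and DESeq2 on all samples also had 26 (4.52%). With 3 samples a group, a permutation test over samples cannot go below p = 0.1. In 32 of the 37 genes the ratio of the highest to the lowest Control-ASO sample exceeded the ratio of the group means, which is an unlike measure.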
